A study of Mus musculus with 6 samples.

Results

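The genes described here are 36 nuclear genes whose proteins fuse and divide mitochondria, shape their inner membrane, move them, or mark and deliver them for removal by autophagy. They were chosen by name and role, and each was matched through its Ensembl identifier to a symbol of the mm10 annotation. All 36 were among the 32285 genes of the count table. Of these, 34 had enough reads to be tested, among 15955 genes tested in all.

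Kidney RNA of 6 female mice, each 100 weeks old, had been sequenced. The high-load group held 3 kidneys in which 75%, 75% and 80% of mitochondrial DNA copies were mutant in TrnE, which encodes the tRNA for glutamate of the organelle. The low-load group, which served as the control, held 3 kidneys that carried the same mutation at 10%, 5% and 15%. No kidney without the mutation was analysed here, and the sources used here give neither strain nor treatment. The kidneys are called high-load 1 to 3 and low-load 1 to 3. The contrast sets a high against a low share of mutant copies at the same age and sex.

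Mitochondria form a network that is remodelled all the time. The dynamin-like GTPases MFN1 and MFN2 join outer membranes and OPA1 joins inner membranes, while DRP1, the product of Dnm1l, is recruited by outer-membrane receptors to divide the organelle. The MICOS complex and OPA1 hold the folds of the inner membrane, the cristae, in shape. Damaged mitochondria are removed by mitophagy, either when the kinase PINK1 builds up on them and ubiquitin chains are read by adaptors such as optineurin, or through receptors such as BNIP3 that bind the LC3 family on the growing autophagosome directly. Proximal tubule cells are packed with mitochondria, so the kidney is among the tissues where this quality control has been studied most.

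Optn, Pink1 and Bnip3 had the smallest p of the members in edgeR, and Opa1 the smallest of the fusion genes. Rhot1 and Mtfr1 had a smaller p than Opa1. Values in high-load kidneys were lower for Pink1, Bnip3 and Opa1 and higher for Optn. The sequences upstream of these 4 genes are shown. Each is the 250 bases before the start site that RefSeq gives (build GRCm38.p6, the reference of mm10), 5′ to 3′ on the strand of the gene. The windows are chr4:138326297-138326546 on the minus strand for Pink1, chr7:138909507-138909756 on the minus strand for Bnip3, chr16:29579084-29579333 on the plus strand for Opa1 and chr2:5064118-5064367 on the minus strand for Optn. Capitals mark matches to motifs searched on both strands.
Pink1: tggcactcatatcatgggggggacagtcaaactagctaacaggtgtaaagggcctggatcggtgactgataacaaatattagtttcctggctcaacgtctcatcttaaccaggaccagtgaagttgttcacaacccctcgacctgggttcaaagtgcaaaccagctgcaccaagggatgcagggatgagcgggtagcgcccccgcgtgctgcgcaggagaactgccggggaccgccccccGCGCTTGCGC
Bnip3: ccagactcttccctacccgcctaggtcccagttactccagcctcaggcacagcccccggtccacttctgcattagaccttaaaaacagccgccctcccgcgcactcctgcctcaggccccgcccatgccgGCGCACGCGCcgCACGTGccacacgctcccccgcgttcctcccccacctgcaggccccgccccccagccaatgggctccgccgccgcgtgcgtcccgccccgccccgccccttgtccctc
Opa1: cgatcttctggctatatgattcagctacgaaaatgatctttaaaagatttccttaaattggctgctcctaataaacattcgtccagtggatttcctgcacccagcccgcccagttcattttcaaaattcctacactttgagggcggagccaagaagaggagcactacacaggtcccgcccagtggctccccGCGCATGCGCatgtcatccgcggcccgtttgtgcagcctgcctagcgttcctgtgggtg
Optn: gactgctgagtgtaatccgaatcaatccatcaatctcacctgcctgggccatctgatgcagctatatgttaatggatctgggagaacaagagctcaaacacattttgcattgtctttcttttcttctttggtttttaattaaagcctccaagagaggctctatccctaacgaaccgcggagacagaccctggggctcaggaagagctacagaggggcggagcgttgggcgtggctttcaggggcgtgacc

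The windows of Pink1, Bnip3 and Opa1 each held 1 match to GCGCA and GCGC set 1 base apart, the motif of NRF1, a transcription factor of nuclear genes for mitochondria. Such a match was present in 1228 of 32841 windows of the same length over all genes (3.74%), and in 6 of the 36 windows that were found for 30 of the members (16.7%). The other windows with it belonged to Map1lc3b, Mtfr2 and Tbk1, whose log2 fold changes were -0.17, 0.70 and -0.07. The windows of Rhot1, Immt, Apool, Mtfp1 and Usp30, which were also lower in high-load kidneys, held no such match, and no window was found for Mtfr1. Bnip3 also held 1 CACGTG, an E-box read by TFEB and by hypoxia-inducible factors, which contains the shorter hypoxia core ACGTG on both strands. CACGTG was present in 6.02% of all windows and in 2 member windows, those of Bnip3 and Mief2, and ACGTG in 16.6% of all windows and in 5 member windows. TGATGNAA, a composite site of ATF4, was present in 3.45% of all windows and in 2 member windows, those of Chchd10 and Rhot2. TNAAGGTCA, read by the estrogen-related receptors, was present in 1.14% of all windows and in 0 member windows. TGTTTAC, read by FOXO factors, was present in 3.17% of all windows and in 1 member window, that of Apool. The Optn window held no match to any of the 6 motifs. These are matches of letters and were not tied to binding. The windows of all genes were not matched to those of the members for base composition.

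Total counts were 17449270 to 18865997 per library, and the scaling factors (TMM) were 0.944 to 1.139, the highest in high-load 1. The 36 genes together had 73533, 81272 and 75770 counts in high-load 1 to 3, against 80815, 81408 and 85694 counts in low-load 1 to 3. Markers of kidney tubules were abundant: the 12 proximal tubule genes summed to 4237, 20799 and 11041 CPM in high-load 1 to 3, and to between 18546 and 25656 CPM in the low-load kidneys. CPM is a count scaled to the TMM-adjusted size of its library, so that kidneys can be compared. Skeletal muscle markers were at or near 0 (at most 0.331 CPM summed over 3 genes, with Myh4 at 0 in all 6 libraries). High-load 1 stood apart in several marker lists and also had the lowest value of all 6 kidneys in 25 of the 34 tested members. Its mean proximal tubule score, the mean over the list of log2(CPM + 0.1) minus the low-load mean, was -2.22, against -0.47 and -0.94 in high-load 2 and 3 and -0.29 to 0.33 in the low-load kidneys. Within that list, Slc7a13 was at 118 CPM in low-load 2 but at 0.555 and 1.31 CPM in low-load 1 and 3. In high-load 1 to 3 it was at 0.142, 0.543 and 0.557 CPM. Injured tubule scores were 2.77, 1.12 and 2.22 in high-load 1 to 3 and -0.45 to 0.52 in the low-load kidneys, and macrophage scores were 1.31, 0.61 and 0.88 in high-load 1 to 3 and -0.31 to 0.18 in the low-load kidneys. B and plasma cell scores were 3.61, 0.94 and 0.20 in high-load 1 to 3 and -0.41 to 0.36 in the low-load kidneys. Urothelium markers summed to 136, 0.380 and 0.0557 CPM in high-load 1 to 3, against 23.5, 10.9 and 8.55 CPM in low-load 1 to 3. Adipose markers summed to 27.0, 10.9 and 0.668 CPM in high-load 1 to 3, against 0.998, 0.790 and 1.74 CPM in low-load 1 to 3. Podocyte scores were -1.56, 0.08 and -0.01 in high-load 1 to 3 and -0.12 to 0.15 in the low-load kidneys, and distal convoluted tubule scores were -2.39, -0.20 and -0.61 in high-load 1 to 3 and -0.27 to 0.28 in the low-load kidneys. The part of these differences in the results that follow was not tested. In whole kidney, fewer cells of a type and less RNA per cell cannot be told apart.

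High-load kidneys had less Pink1, Bnip3, Rhot1, Mtfr1, Opa1, Immt and Apool mRNA and more Optn mRNA in each of the 3 animals than any low-load kidney. Fold changes were 0.654 for Pink1 to 0.805 for Rhot1 among the lower genes and 1.51 for Optn. These genes are named because they had the smallest p of the members. Groups did not overlap in 29.4% of tested members as lower and 2.94% as higher, against 15.8% and 17.1% of all genes tested. The core fission genes Dnm1l, Fis1 and Mff were at nearly the same level in both groups. None of the 34 tested genes passed an adjusted p of 0.05 over all genes in edgeR's quasi-likelihood test, where 0.0188% of all tested genes passed as higher and 0% as lower. Optn had the smallest adjusted p (0.0981) and was the only member under 0.1, where 2.59% of all genes were higher and 0.608% lower. At an unadjusted p under 0.05, 7 of the 34 were lower (20.6%), against 10.2% of all genes tested, and 1 was higher (2.94%), against 14% of all genes tested. DESeq2 called 3 members at an adjusted p under 0.05, Pink1 and Bnip3 lower and Optn higher, where it called 3.88% of genes lower and 6.67% higher, and limma-voom called 0 members and 0 of all genes.

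Of the 34 genes, 28 had a fold change below 1 and 6 above it. The median log2 fold change, high load over low load, was -0.18, against 0.01 over all genes tested, and single genes lay between -0.61 for Pink1 and 0.70 for Mtfr2, or 0.24 for Mtfr2 without high-load 1. Groups did not overlap in 10 genes that were lower in high-load kidneys (29.4%, against 15.8% of all genes tested) and in 1 that was higher (2.94%, against 17.1% of all genes). Low-load 2 had the highest value of all 6 kidneys in 18 of the 34 genes. Without high-load 1 the median was -0.12, with 7 members lower and 1 higher at an unadjusted p under 0.05. There, 8.09% of all genes were lower and 10.6% higher. Without low-load 2 the median was -0.09 and 4 members were lower, where 6.25% of all genes were lower. For 20 members the 95% interval of the fold change lay wholly within 1.5-fold in either direction.

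**Figure D1:**
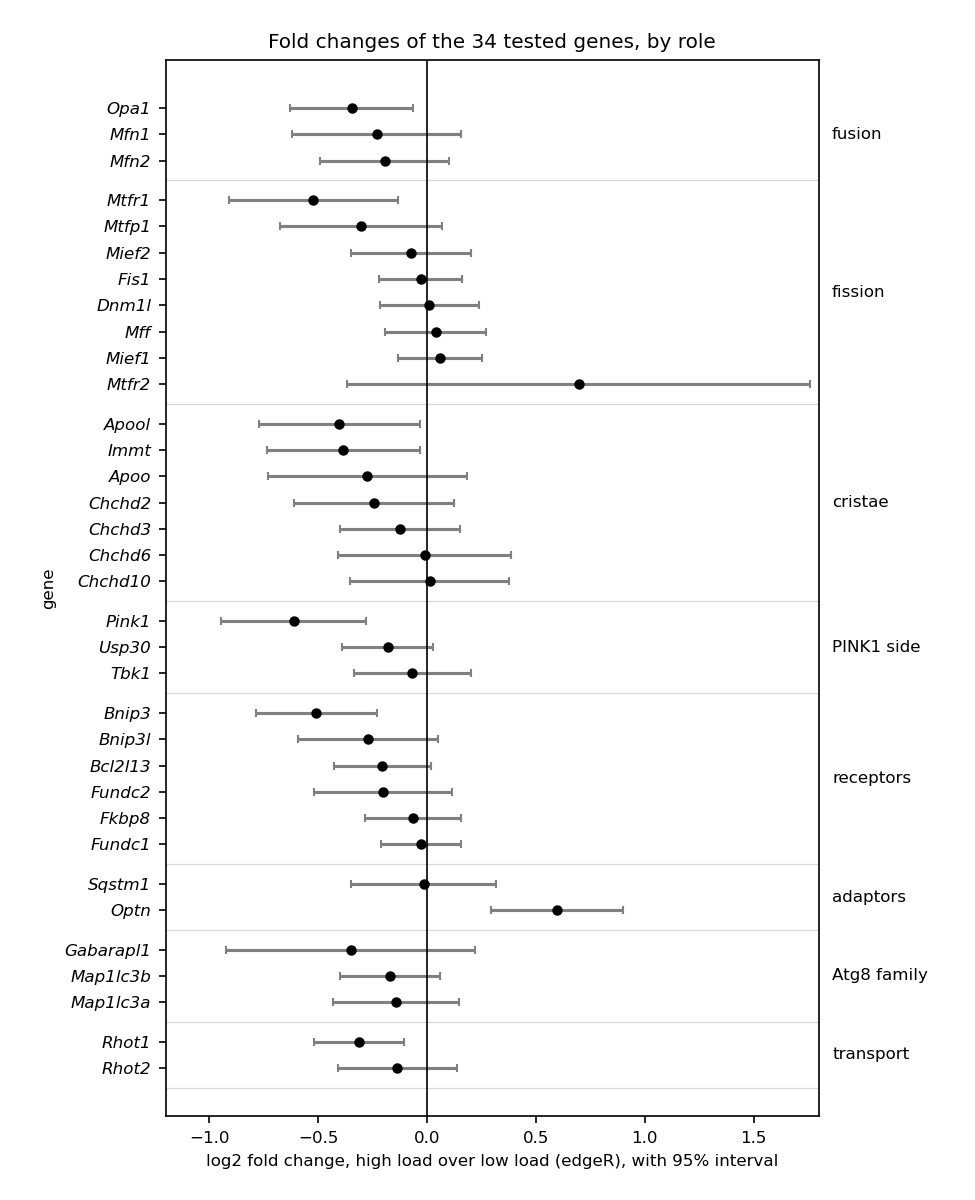
Log2 fold changes of the 34 tested genes, high load over low load, from edgeR (points), with 95% intervals (bars), grouped by role and ordered within each role. Most points lie left of 0, from -0.61 for Pink1, while Dnm1l (0.01), Fis1 (-0.03) and Mff (0.04) sit near 0 and Optn (0.60) lies right of it with an interval that does not reach 0.

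Among the fusion genes, Opa1 differed most between the groups. Opa1 (chr16:29579334-29654884, plus strand), the inner-membrane fusion GTPase, had 72.8, 89.4 and 91.5 CPM in high-load 1 to 3, against 101, 118 and 103 CPM in low-load 1 to 3. Every high-load kidney was below every low-load kidney, and high-load 1 was the lowest. The log2 fold change was -0.35 with an SE of 0.12 (95% interval -0.63 to -0.06, edgeR adjusted p 0.158). Mfn1, an outer-membrane fusion GTPase, had 82.9, 93.2 and 98.7 CPM in high-load 1 to 3, against 97.1, 134 and 91.3 CPM in low-load 1 to 3. Its groups overlapped, and the low-load mean of 108 ± 23.3 CPM rested on low-load 2: the log2 fold change was -0.23 with all 6 libraries and -0.04 without that kidney. Mfn2, its paralogue, which also tethers mitochondria to the endoplasmic reticulum, had 114, 139 and 149.9 CPM in high-load 1 to 3, against 145, 162 and 154 CPM in low-load 1 to 3. High-load 3 lay within the low-load range, and the log2 fold change was -0.19 (SE 0.12, adjusted p 0.370), or -0.09 without high-load 1.

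Of the 8 fission genes tested, 1 was lower at an unadjusted p under 0.05 (12.5%, against 10.2% of all genes), and 4 lay on each side of a fold change of 1. Dnm1l, which encodes the dividing GTPase DRP1, had 90.9, 95.9 and 107 CPM in high-load 1 to 3, against 98.7, 102 and 91.0 CPM in low-load 1 to 3. The groups overlapped and the log2 fold change was 0.01 (95% interval -0.22 to 0.24). Fis1, an outer-membrane adaptor of fission, had 103, 109 and 109 CPM in high-load 1 to 3, against 105, 112 and 111 CPM in low-load 1 to 3, a log2 fold change of -0.03 (95% interval -0.22 to 0.16). Mff, the main DRP1 receptor, averaged 90.4 ± 7.09 CPM in high-load and 87.9 ± 6.19 CPM in low-load kidneys (SD, n = 3 each). Mief1 and Mief2, which encode the receptors MiD51 and MiD49, averaged 29.97 ± 1.37 and 16.7 ± 1.63 CPM in high-load kidneys, against 28.7 ± 1.00 and 17.5 ± 0.873 CPM in low-load kidneys. The intervals of all 5 of these genes lay within 1.5-fold in either direction.

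Mtfr1 and Mtfp1 were the fission genes whose groups did not overlap, both lower (25% of the 8 tested, against 15.8% of all genes). Mtfr1, which encodes a mitochondrial fission regulator, had 42.3, 56.8 and 46.9 CPM in high-load 1 to 3, against 62.1, 84.4 and 63.2 CPM in low-load 1 to 3, a log2 fold change of -0.52 (SE 0.16, adjusted p 0.139). All 3 high-load kidneys were below the lowest low-load kidney. Mtfp1, which encodes an inner-membrane protein that promotes fission, had 18.7, 26.4 and 26.9 CPM in high-load 1 to 3, against 29.2, 32.3 and 27.5 CPM in low-load 1 to 3. The groups did not overlap, but high-load 3 and low-load 3 were close, and the log2 fold change was -0.31 (SE 0.16, adjusted p 0.275), or -0.15 without high-load 1. Mtfr2, a relative of Mtfr1, had 2.27, 1.41 and 0.724 CPM in high-load 1 to 3, against 0.721, 0.972 and 1.04 CPM in low-load 1 to 3, with an interval of -0.37 to 1.76 on the log2 scale. Its log2 fold change was 0.70 with all libraries, 0.24 without high-load 1 and 1.014 without high-load 3. Gdap1, a fission factor best known from neurons, had 12 counts in all 6 libraries together, too few for a test.

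**Figure D2:**
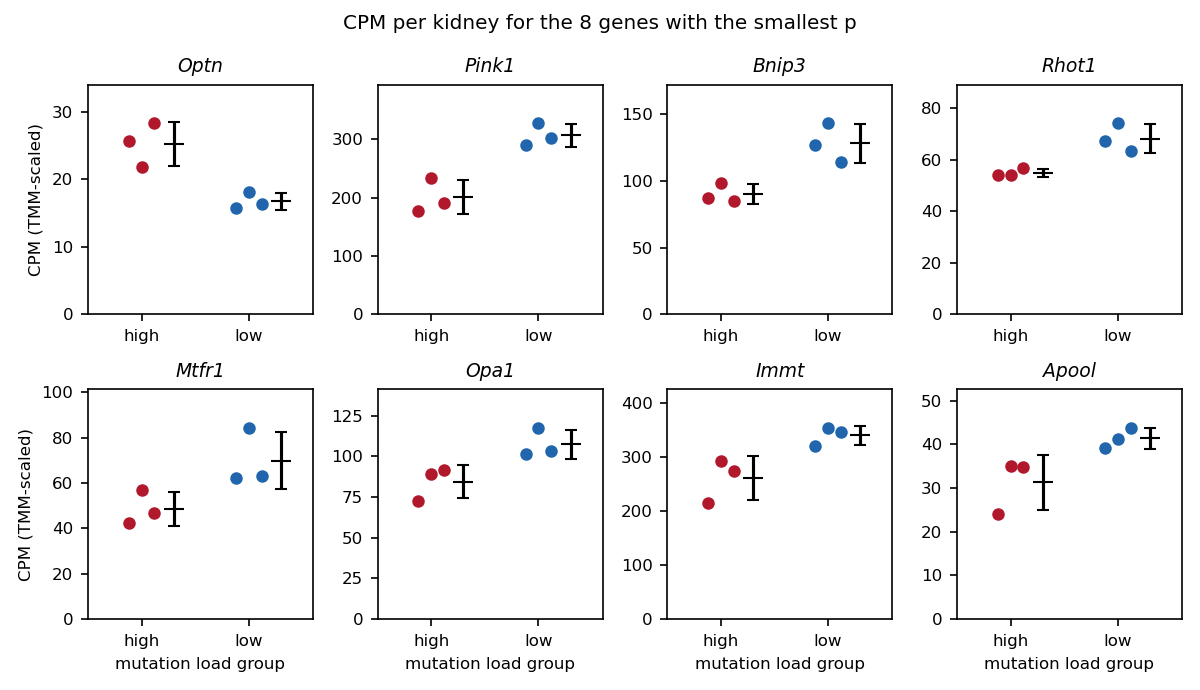
CPM in each kidney (points, linear axis from 0) for the 8 genes with the smallest p, with the mean and SD of each group beside them. In every panel the 3 high-load kidneys lie apart from the 3 low-load kidneys, above them for Optn and below them for the other 7 genes.

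Within the cristae group, Immt and Apool were the genes whose groups did not overlap, both lower (28.6% of the 7, against 15.8% of all genes). Immt, which encodes mitofilin, the central subunit of MICOS, had 215, 292 and 275 CPM in high-load 1 to 3, against 321, 355 and 346 CPM in low-load 1 to 3. The groups did not overlap, high-load 1 was the lowest, and the log2 fold change was -0.38 (SE 0.15, 95% interval -0.74 to -0.03, adjusted p 0.181). Apool, which encodes the MICOS subunit MIC27, had 24.0, 35.0 and 34.8 CPM in high-load 1 to 3, against 39.1, 41.1 and 43.8 CPM in low-load 1 to 3, a log2 fold change of -0.40 (SE 0.16, adjusted p 0.182). Without high-load 1 it was -0.24. Apoo, which encodes the related subunit MIC26, averaged 64.6 ± 16.8 CPM in high-load and 78.2 ± 2.30 CPM in low-load kidneys. High-load 1 was at 45.3 CPM, and high-load 2 and 3 were at 75.7 and 72.9 CPM, against 75.6, 79.7 and 79.4 CPM in low-load 1 to 3. The log2 fold change was -0.28 with all libraries and -0.07 without high-load 1.

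The 4 CHCHD genes encode small proteins of the intermembrane space that carry cysteine motifs. Chchd10, which is mutated in familial motor neuron and muscle disease, had 171, 224 and 241 CPM in high-load 1 to 3, against 198, 229.6 and 203 CPM in low-load 1 to 3. High-load kidneys held both the lowest and the highest value, and the log2 fold change was 0.01 (95% interval -0.35 to 0.38). Chchd2, its paralogue, had 280.0, 371 and 338 CPM in high-load 1 to 3, against 356, 435 and 378 CPM in low-load 1 to 3, a log2 fold change of -0.24 (SE 0.15, adjusted p 0.368), or -0.13 without high-load 1. Chchd3 and Chchd6, which encode the MICOS subunits MIC19 and MIC25, averaged 111 ± 13.6 and 20.4 ± 2.98 CPM in high-load kidneys, against 121 ± 7.04 and 20.5 ± 3.61 CPM in low-load kidneys. Over the 7 cristae genes the median log2 fold change was -0.24, and 2 were lower at an unadjusted p under 0.05 (28.6%, against 10.2% of all genes).

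**Figure D3:**
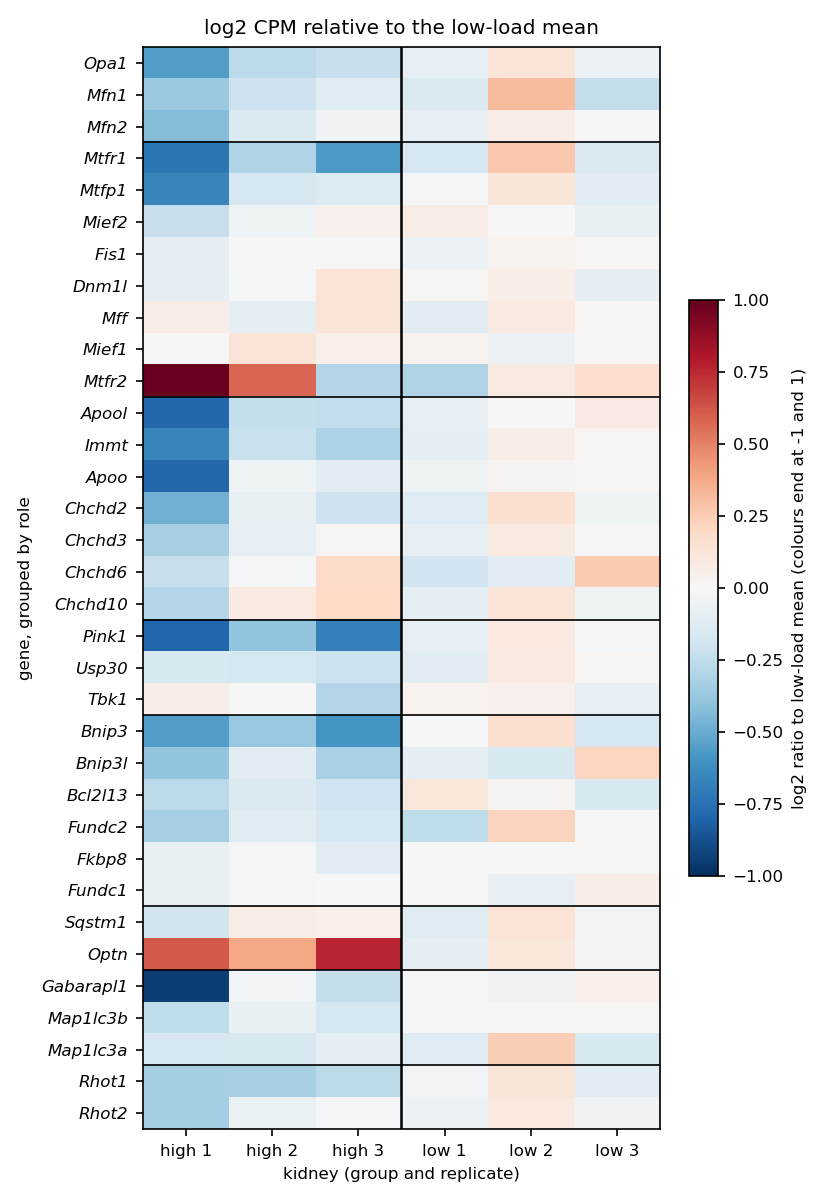
Log2 CPM of the 34 tested genes (rows, grouped by role with lines between roles) in each of the 6 kidneys (columns), relative to the mean of the low-load kidneys. Blue is lower and red higher than that mean. High-load 1 has the deepest blue in most rows, Pink1 and Bnip3 are blue in all 3 high-load kidneys, and Optn is red in all 3.

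Pink1 had the lowest fold change of the 34 genes. Pink1 (chr4:138313409-138326307, minus strand), the kinase that marks damaged mitochondria, had 178, 234 and 191 CPM in high-load 1 to 3, against 290.3, 328 and 303 CPM in low-load 1 to 3. The highest high-load kidney was below the lowest low-load kidney. The log2 fold change was -0.61 with an SE of 0.14 (95% interval -0.94 to -0.28), with an edgeR adjusted p of 0.102 and a DESeq2 adjusted p of 0.00159. Omitting high-load 1 gave -0.53, and omitting high-load 2 gave -0.74. With any 1 library left out, the edgeR adjusted p ran from 0.0403, without high-load 2, to 0.268. Without high-load 2, 807 genes of the whole table passed an adjusted p of 0.05, against 3 with all libraries. Usp30, a deubiquitinase of the outer membrane that opposes PINK1, had 24.7, 24.4 and 23.7 CPM in high-load 1 to 3, against 25.5, 29.3 and 27.7 CPM in low-load 1 to 3. The groups did not overlap but lay close, with a log2 fold change of -0.18 (adjusted p 0.255). Tbk1, the kinase that phosphorylates optineurin, averaged 33.9 ± 4.38 CPM in high-load and 35.5 ± 1.73 CPM in low-load kidneys.

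Receptors that bind LC3 without ubiquitin were led by Bnip3. Bnip3 (chr7:138890836-138909519, minus strand), a hypoxia-inducible mitophagy receptor, had 86.8, 98.8 and 84.7 CPM in high-load 1 to 3, against 127, 144 and 114 CPM in low-load 1 to 3, with no overlap. The log2 fold change was -0.51 with an SE of 0.12 (95% interval -0.79 to -0.23), with an edgeR adjusted p of 0.102 and a DESeq2 adjusted p of 0.00752. High-load 1 was not the lowest kidney here. Bnip3l, its paralogue NIX, had 109, 133 and 114 CPM in high-load 1 to 3, against 134, 129 and 166 CPM in low-load 1 to 3. Its groups overlapped, and the log2 fold change was -0.27 (SE 0.13, adjusted p 0.265), or -0.15 without low-load 3. Bcl2l13, a mammalian counterpart of the yeast mitophagy receptor Atg32, had 39.7, 43.2 and 41.5 CPM in high-load 1 to 3, against 51.7, 48.7 and 43.1 CPM in low-load 1 to 3 (log2 fold change -0.21, adjusted p 0.231). High-load 2 and low-load 3 were at almost the same value. Fundc1, a receptor of hypoxic mitophagy, was at 36.3 ± 0.934 and 37.0 ± 1.93 CPM in high-load and low-load kidneys, and its log2 fold change of -0.03 had an interval of -0.21 to 0.15. Fundc2 was at 56.2 ± 4.20 CPM in high-load and 64.6 ± 10.5 CPM in low-load kidneys. Fkbp8, a receptor that also inhibits apoptosis, was at 199.8 ± 6.30 CPM in high-load and 209 ± 2.56 CPM in low-load kidneys.

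Optn was the only member with higher values in all 3 high-load kidneys. Optn (chr2:5020642-5064051, minus strand), the adaptor that links ubiquitin on mitochondria to LC3, had 25.7, 21.9 and 28.4 CPM in high-load 1 to 3, against 15.7, 18.1 and 16.4 CPM in low-load 1 to 3. The log2 fold change was 0.60 with an SE of 0.13 (95% interval 0.29 to 0.90, a fold of 1.51), with a DESeq2 adjusted p of 0.0101. The edgeR adjusted p was 0.0981 with all libraries. With any 1 library left out, it ran from 0.0395, without high-load 2, to 0.260. Sqstm1, which encodes the adaptor p62, had 412, 491 and 484 CPM in high-load 1 to 3, against 430.3, 513 and 459 CPM in low-load 1 to 3. Its groups overlapped throughout, with a log2 fold change of -0.02 (95% interval -0.35 to 0.32). Calcoco2, the mouse gene of the adaptor NDP52, had a single count, in low-load 3, and was left untested.

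The LC3 and GABARAP genes encode the ubiquitin-like proteins that coat the autophagosome. Map1lc3b had 167, 189 and 176 CPM in high-load 1 to 3, against 197, 198 and 202 CPM in low-load 1 to 3. The groups did not overlap, the low-load kidneys were very close to each other, and the log2 fold change was -0.17 (SE 0.10, adjusted p 0.320). Map1lc3a was at 44.5 ± 1.13 CPM in high-load and 49.1 ± 7.88 CPM in low-load kidneys. Gabarapl1 was at 391 CPM in high-load 1 but at 736 and 635 CPM in high-load 2 and 3, against 739, 732 and 777 CPM in low-load 1 to 3, and its log2 fold change of -0.35 was -0.13 without high-load 1. For transport along microtubules, Rhot1, which encodes the motor adaptor MIRO1, had 54.1, 54.2 and 56.7 CPM in high-load 1 to 3, against 67.2, 74.4 and 63.3 CPM in low-load 1 to 3. The high-load kidneys were tightly grouped below all low-load kidneys, and the log2 fold change was -0.31 (SE 0.09, adjusted p 0.124). Rhot2, which encodes MIRO2, was at 126 ± 14.8 and 139 ± 8.19 CPM in high-load and low-load kidneys.

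Exons of 15 of the 36 members overlap those of another gene, and the sources used here do not say how shared reads were counted. For Pink1 (with Gm27646 and Mir7019), Rhot2 and Mief1 the other gene lies on the same strand. Exons of Bnip3, Optn, Immt, Dnm1l, Sqstm1, Map1lc3b and Chchd10 each overlap those of at least 1 gene on the opposite strand, and the strand setting is not given either.

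Levels of different genes were compared as CPM per kilobase of merged exon length. Gabarapl1 was the most abundant member in both groups, at 292 ± 88.0 in high-load and 372 ± 11.9 in low-load kidneys. Chchd2 followed at 145 ± 20.2 and 172 ± 18.01, Sqstm1 at 138 ± 13.0 and 139 ± 12.6 and Chchd10 at 135 ± 23.0 and 133 ± 10.8, and these 3 differed by less than their spread in high-load kidneys. Pink1 had rank 5 in both groups, at 75.1 ± 10.99 in high-load and 115 ± 7.30 in low-load kidneys, well above Opa1 at 10.7 ± 1.30 and 13.6 ± 1.13. Optn was near the bottom of the order, at 6.74 ± 0.871 and 4.46 ± 0.330. Merged lengths include all annotated transcripts and understate genes with long rarely used exons.

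Ratios between 12 pairs of members within each library do not move with the scaling of the libraries. An exact two-sided permutation test of 3 against 3 kidneys cannot give a p below 0.1, and adjusted over the 12 pairs no p was below 0.400. Opa1 over Dnm1l, inner-membrane fusion against fission, had log2 ratios per kilobase of -0.92, -0.70 and -0.82 in high-load 1 to 3, against -0.56, -0.39 and -0.41 in low-load 1 to 3. The groups did not overlap, and the difference was -0.36 (exact permutation p 0.1), or -0.42 to -0.31 with any 1 library left out. Chchd10 over Chchd2 had log2 ratios of -0.18, -0.20 and 0.04 in high-load 1 to 3, against -0.32, -0.40 and -0.37 in low-load 1 to 3, a difference of 0.25 with no overlap (exact permutation p 0.1). Mfn1 over Mfn2 differed by -0.01 and Map1lc3a over Map1lc3b by 0.04, both within the spread of the low-load kidneys. Groups overlapped in the other pairs except Calcoco2 over Optn, where Calcoco2 was at or near 0 and the ratio followed Optn and the added 0.1 CPM.

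**Figure D4:**
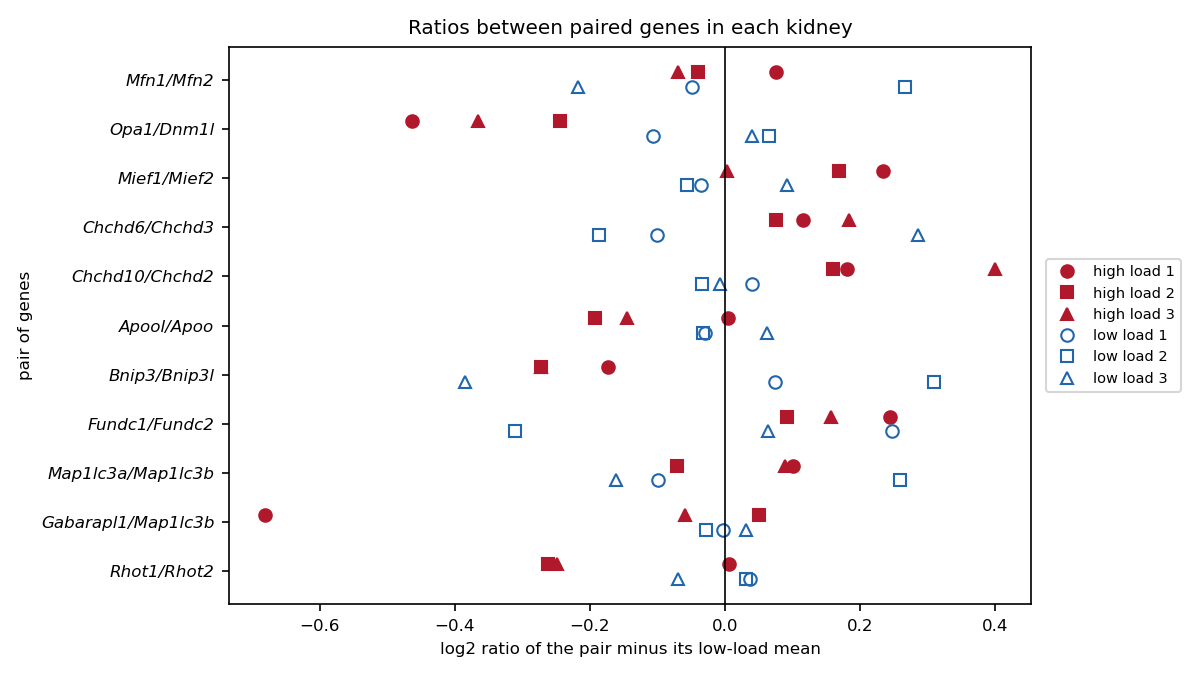
Log2 ratios between 11 pairs of genes in each kidney, minus the low-load mean of the pair, with filled red symbols for high load and open blue symbols for low load. The groups lie apart for Opa1/Dnm1l, lower in all 3 high-load kidneys, and for Chchd10/Chchd2, higher in all 3. Gabarapl1/Map1lc3b is lowest in high-load 1.

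Partner genes of the same machinery gave 0 calls at an adjusted p under 0.05 in edgeR and in limma-voom, in each of the lists described next. Of the 12 partners of MICOS and the inner membrane, 9 lay below a fold change of 1 and the median on the log2 scale was -0.13, while 0 passed an unadjusted p under 0.05 or DESeq2. The smallest p belonged to Mtx3, an outer-membrane partner of MICOS (31.9 ± 4.44 CPM in high-load and 41.1 ± 7.04 CPM in low-load kidneys), Letm1, an inner-membrane ion exchanger (94.7 ± 13.2 and 115 ± 8.07 CPM), and Micos13, a MICOS subunit (71.8 ± 9.79 and 83.8 ± 7.32 CPM). Genes of OPA1 processing and fusion lay below a fold change of 1 in 11 of 11 cases, with a log2 median of -0.12 and 0 past an unadjusted p under 0.05 or DESeq2. Both proteases that cut OPA1 were among the first 3. Yme1l1 was at 85.2 ± 4.89 CPM in high-load and 95.8 ± 2.97 CPM in low-load kidneys, and Oma1 at 22.7 ± 3.50 and 27.4 ± 4.34 CPM. Ghitm, an inner-membrane protein of cristae, was at 508 ± 94.2 and 624 ± 51.4 CPM.

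Fission and transport partners lay on both sides, with 5 of 10 tested genes on each side of a fold change of 1 and a median of -0.03. At an unadjusted p under 0.05, 2 of the 10 were lower, against 10.2% of all genes, and 1 was higher, against 14% of all genes. DESeq2 called 1 lower, where it called 3.88% of genes lower. That gene was Trak2, which ties MIRO proteins to motors, at 121 ± 13.0 CPM in high-load and 158 ± 9.10 CPM in low-load kidneys. Fbxo7, a ubiquitin ligase subunit, was at 52.6 ± 6.501 and 68.5 ± 9.58 CPM, and Armcx3, an outer-membrane protein of mitochondrial transport, was the higher gene at 16.1 ± 1.32 and 11.8 ± 1.97 CPM.

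The ubiquitin side of mitophagy showed the lowest median of the partner lists. Its median log2 fold change was -0.20, and 14 of its 15 genes were on the lower side of 1. At an unadjusted p under 0.05, 4 were lower (26.7%, against 10.2% of all genes) and 1 higher (6.67%, against 14%). DESeq2 called 3 lower, where it called 3.88% of genes lower. Groups did not overlap in 8 lower genes (53.3%, against 15.8% of all genes). The 3 that DESeq2 called were Nipsnap1, which flags damaged mitochondria to adaptors, at 98.7 ± 18.6 CPM in high-load and 155 ± 17.1 CPM in low-load kidneys, the lipid transfer gene Vps13d at 80.0 ± 7.50 and 108 ± 13.1 CPM, and the adaptor gene Tax1bp1 at 221 ± 21.3 and 288 ± 14.4 CPM. Their edgeR adjusted p values were 0.111, 0.125 and 0.140.

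The 34 core autophagy genes had a log2 median of -0.09, with 23 of them below a fold change of 1 and 11 above it. At an unadjusted p under 0.05, 7 were lower (20.6%, against 10.2% of all genes) and 1 higher (2.94%, against 14%), and DESeq2 called 0. Tfeb, the transcription factor of lysosomes and autophagy, was the higher gene, with 33.2, 31.6 and 31.6 CPM in high-load 1 to 3, against 28.5, 24.1 and 25.4 CPM in low-load 1 to 3 (adjusted p 0.134). Gabarapl2, another gene of the LC3 family, was at 77.2 ± 5.48 CPM in high-load and 92.1 ± 3.28 CPM in low-load kidneys, and the initiating kinase gene Ulk1 at 66.3 ± 5.35 and 82.6 ± 8.77 CPM.

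Over 15 genes of general mitochondrial content the median log2 fold change was -0.19, with 10 below a fold change of 1 and 5 above it. Those above were Vdac2, Vdac3, Tomm22, Tomm40 and Cs, with log2 fold changes from 0.06 for Cs to 0.19 for Vdac3. At an unadjusted p under 0.05, 2 of the 15 were lower (13.3%, against 10.2% of all genes). DESeq2 called 1 lower, where it called 3.88% of genes lower. Groups did not overlap in 8 of the 15, lower in high-load kidneys (53.3%, against 15.8% of all genes and 29.4% of the members). Sdha, a subunit of complex II, was at 526 ± 96.7 CPM in high-load and 732 ± 58.5 CPM in low-load kidneys, the import receptor gene Tomm20 at 117 ± 4.14 and 149 ± 25.2 CPM, and Atp5a1 of ATP synthase, the gene DESeq2 called, at 1653 ± 249.5 and 2204 ± 81.0 CPM. Scores of mitochondrial content were -0.34, -0.08 and -0.07 in high-load 1 to 3 and -0.06 to 0.09 in the low-load kidneys. Over the 34 members the scores were -0.28, -0.07 and -0.12 in high-load 1 to 3, against -0.07 to 0.08 in the low-load kidneys. High-load 1 was the lowest on both, and also on the proximal tubule score. Whether tubule makeup or mitochondrial content accounts for the members' values was not tested.

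**Figure D5:**
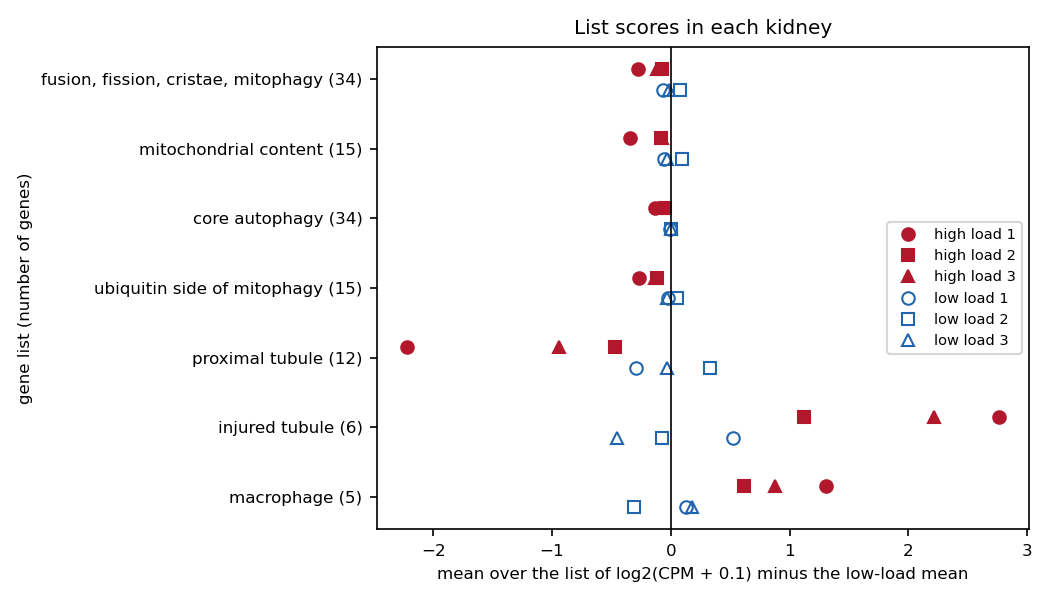
Scores of 7 gene lists in each kidney, as the mean over the list of log2(CPM + 0.1) minus the low-load mean, with filled red symbols for high load and open blue symbols for low load. The members, mitochondrial content and autophagy lists lie within 0.4 of 0 in every kidney, while the proximal tubule score reaches -2.22 and the injured tubule score 2.77, both in high-load 1.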

How the data were processed

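Raw read counts per Ensembl gene were deposited by the authors as a single table with 1 column per kidney. Per the labels, TRIzol RNA, an Illumina TruSeq kit and paired reads of 150 bp on a DNBSEQ instrument were used. Per the submitters' processing notes, the tools named are fastp (0.23.2), HISAT2 (version 2.2.1), SAMtools (version 1.11), featureCounts (version 2.0.1), edgeR with no version, and mm10. Annotation, strand setting and the treatment of multimapping reads: not given in the sources used here. Groups and replicate numbers came from the titles. Each library was treated as a separate animal.

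Counts were tested with edgeR 4.0.16 in R 4.3.3 (filterByExpr with a minimum count of 10, TMM, robust quasi-likelihood F test on group, two-sided, Benjamini-Hochberg over 15955 genes). SEs were derived from F. DESeq2 1.42.0 and limma 3.58.1 (voom) were alternatives. The test was checked on simulated data before use, at an adjusted p under 0.05. There, edgeR recovered 14% of 1.5-fold and 50% of 2-fold changes, with 9 false calls of 128. DESeq2 recovered 22% and 60%, but 48 of its 182 calls were false. For limma-voom the values were 10% and 46%, with 8 false calls of 124. The biological coefficient of variation was 23.0%. Symbols, positions and exon lengths came from GENCODE M21.

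Values of every library were given for the 14 members with the smallest p and 6 further fixed members, and for Mtfr2, Apoo and Gabarapl1, added after their values were seen. Each partner list names the 3 genes with the smallest p. Members and lists were chosen with earlier results of these data known. Fold changes of genes with few counts are less precise. The p-values of single genes set the group difference against the spread between these animals, estimated with information shared across genes.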

Additional observations from a re-analysis of the deposited data

How the results depend on the processing

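With any single library left out, 0 to 807 genes of the whole table passed an adjusted p of 0.05 (3 with all libraries), and 0 to 2 members. Both highest counts came without high-load 2. There, 807 of 16283 genes tested passed, 544 of them higher and 263 lower. Of the 34 members, 2 passed, Pink1 as lower and Optn as higher. Members at an unadjusted p under 0.05 numbered 4 to 8 lower, where 6.15% to 13.2% of all genes were lower. Those that were higher numbered 1 to 2, where 9.38% to 15.9% of all genes were higher. Those whose groups do not overlap numbered 10 to 17 lower, where 19.0% to 22.8% of all genes were lower (15.8% with all libraries). They numbered 1 to 2 higher, where 20.5% to 25.4% of all genes were higher (17.1% with all libraries). The members' median log2 fold change was -0.20 to -0.085. DESeq2 called 1698 genes and 3 members, no filter on low counts gave 50 genes, and limma-voom 0. At an adjusted p under 0.1, 1 member passed in edgeR. With library totals alone the median of all genes was 0.13, against 0.01 with TMM, so the members' median of -0.057 lay as far below it as before, and 3 members were higher with no overlap, where 24.2% of all genes were. Fold changes then turned positive for Fis1 (0.087), Mief2 (0.041), Chchd6 (0.099), Fundc1 (0.088), Fkbp8 (0.054), Sqstm1 (0.097) and Tbk1 (0.058), and Dnm1l was at -1.7e-05 in DESeq2.

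Leaving out a library also turned the sign of genes near 0. Log2 fold changes spanned -0.058 to 0.064 for Dnm1l, -0.062 to 0.0029 for Fis1, -0.018 to 0.10 for Mff, -0.14 to 0.0063 for Mief2, -0.12 to 0.14 for Chchd6, -0.091 to 0.15 for Chchd10, -0.070 to 0.0046 for Fundc1, -0.076 to 0.063 for Sqstm1 and -0.14 to 0.032 for Tbk1. The log2 ratio difference spanned -0.12 to 0.12 for Mfn1/Mfn2 and -0.041 to 0.17 for Map1lc3a/Map1lc3b. The other 24 of 34 members kept their sign under all 9 alternatives and 6 omissions, Pink1 between -0.74 and -0.50, Bnip3 between -0.59 and -0.39 and Optn between 0.51 and 0.72. The cause of these shifts was not tested.

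With the replicate number as a block (paired by number), 1 gene of the whole table passed, and 0 members. Deviations of same-numbered kidneys correlated at 0.12, -0.19 and 0.05, and those of different-numbered kidneys at -0.28 to 0.32. With 3 kidneys per group, these correlations cannot decide whether the numbers pair the animals. Gdap1 and Calcoco2 had too few reads for a test, with 12 and 1 counts over the 6 libraries.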
